A study of Mus musculus with 3 samples.

Results

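The RNA described here is that of 2 neighbouring tissues of the mouse eye in 1 sample, the retinal pigment epithelium (RPE) and the choroid. It was the common reference of a microarray study of the choroid plexus epithelium (CPE), the cell layer that makes cerebrospinal fluid. The study laser dissected CPE from the brains of 3 healthy female C57BL/6 mice of 18 to 21 weeks. Their RNA was labelled with the red dye Cy5. The RPE/choroid RNA came from wild type C57BL/6 mice and was labelled with the green dye Cy3 for each of the 3 arrays, of which all 3 are used. No dye swap was made. The age, sex and number of the animals behind the reference, and how its tissue was dissected, are not given in the sources used here. The tissue was 1 RNA measured on 3 arrays, so the standard deviation (SD) of a gene over arrays describes repeat hybridisation and not animals, and no groups were compared.

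All Cy3 spots that were no controls and no outliers were used, which left 41169 of 41174 probes on an Agilent whole mouse genome array. A level is the log2 of the mean Cy3 intensity of a spot after quantile normalization over the 3 arrays. The percentile of a probe is the place of its mean level among all 41169 probes. The limits between the high, moderate, low and very low expression classes were percentiles 90, 50 and 10. A gene is given by its brightest probe. Hybridisation differs between probes, so a percentile is a place on this array and not the abundance of a transcript relative to that of another gene. A probe was well above background where the scanner software set that flag.

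The RPE is a single layer of pigmented cells behind the photoreceptors. It turns all-trans retinol back into the 11-cis retinal that photoreceptors need, takes up shed photoreceptor tips, absorbs stray light with melanin and carries nutrients from the blood. The choroid behind it is a vascular layer of capillaries, larger vessels, fibroblasts, melanocytes and immune cells. Both lie against the neural retina on one side and the sclera with its muscles on the other.

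Of 19691 genes with a symbol, 3261 had a probe in the high class, which is 16.6% of them. This share exceeds the share of probes above the 90th percentile in part because a gene with several probes counts by its brightest. It also leaves out the 8147 probes without a symbol, of which 237 were in the high class. On all 3 arrays 14310 genes were well above background (72.7%). The median gene lay at percentile 65.6. For 905 olfactory receptor genes, a family used mainly in the nose, the median percentile was 17.5, only Olfr15 was in the high class and 12.4% passed the background flag on every array. Those values are the measured background for the lists below. The lists and their members were chosen with earlier results of these data known, so their shares are descriptions and test nothing.

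Array 3 stood apart from arrays 1 and 2. Over 25312 probes that were well above background on all 3 arrays, unnormalized log2 intensities of arrays 1 and 2 correlated at r = 0.997, and array 3 correlated with array 1 at 0.950 and with array 2 at 0.951. These are correlations across probes, which are not independent replicates. After normalization, 2 of these probes differed by 2-fold or more between arrays 1 and 2, and 774 differed that much between arrays 1 and 3. The median SD over the 3 arrays was 0.15 log2 units. Over arrays 1 and 2 alone it was 0.039, although an SD of a pair is smaller on average than one of 3 values. Each value below is therefore given by array, in the order 1, 2 and 3.

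**Figure D1:**
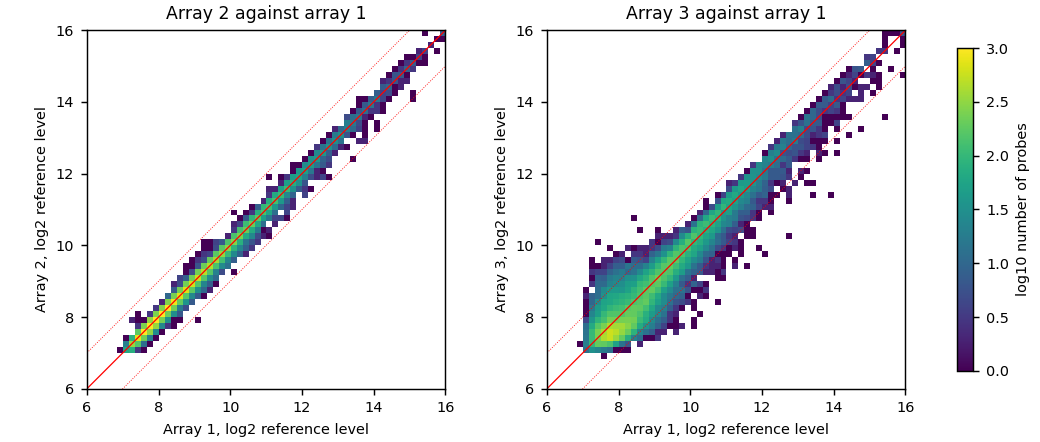
Log2 Cy3 levels of array 2 (left) and array 3 (right) against array 1 for 25312 probes well above background on all 3 arrays, with colour for the log10 number of probes, the solid line for equal levels and dotted lines at a 2-fold difference. Array 2 follows array 1 along the whole range, whereas array 3 spreads to both sides, most widely at low levels.

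The 5 RPE and pigment cell markers were all in the high class on each array. Rpe65, the isomerase of the visual cycle, had levels of 14.43, 14.50 and 14.45 and rank 91 of 41169 probes. Rlbp1, which encodes the retinal carrier CRALBP, had 12.61, 12.52 and 11.96 and rank 663. Rgr, a retinal G protein-coupled receptor of the RPE, had 14.41, 14.38 and 14.21 and rank 110. Rpe65 was nearly the same on all arrays and Rlbp1 was lowest on array 3. Tyrp1, a melanin-making enzyme, had 15.13, 14.33 and 14.63 and rank 66. Dct, the dopachrome tautomerase of melanin synthesis, was saturated on all 3 arrays, so its level is a lower bound. In coordinates of the array files on mouse build mm8, the probes lay at chr3:159550027-159550086 for Rpe65, chr7:79248694-79248753 for Rlbp1, chr14:35948883-35948942 for Rgr, chr4:80322452-80322511 for Tyrp1 and chr14:116895169-116895229 for Dct. Exons are left out because the gene models used here are of another build.

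The markers of the labelled tissue were thus high, but they were not alone. Genes of the lists for rods, lens, cornea and skeletal muscle were in the high class too and are described below. Fewer cells of a type and less RNA per cell cannot be told apart in such a bulk RNA.

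**Figure D2:**
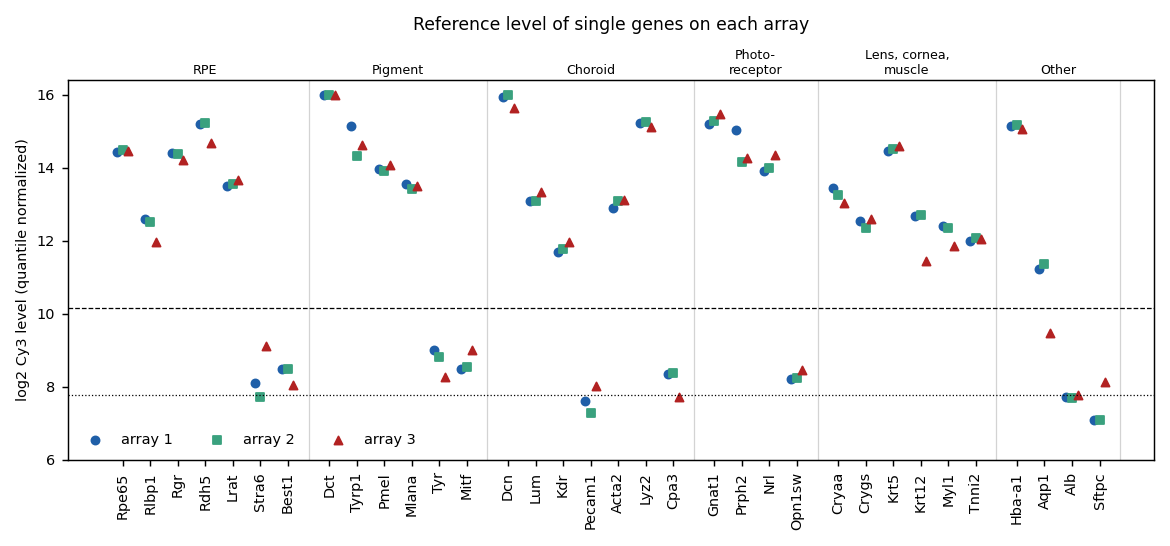
Log2 Cy3 levels of single genes on array 1 (circles), array 2 (squares) and array 3 (triangles), with the dashed line at the lowest mean level of the high class (10.16) and the dotted line at that of the moderate class (7.77). The plotted genes of RPE, pigment, stroma, rods, lens, cornea and muscle lie above the dashed line on all arrays except Stra6, Best1, Tyr and Mitf, and Aqp1 on array 3, and array 3 is the odd one for Stra6, Krt12, Aqp1 and Sftpc.

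Several pigment genes hold a short DNA element that the factor MITF can bind, an E box of the form CATGTG. RefSeq promoter windows (build GRCm38.p6, 250 bases before to 50 bases after a start site) existed for 10 of the 15 genes of the melanin list. CATGTG on either strand occurred in 7 of the 10, against 15.9% of 27025 genes with a window. The longer form TCATGTGCT, which includes CATGTG, occurred in Dct, Tyr and Tyrp1 and in 112 of the 27025 genes (0.414%). The longer form was chosen after the windows had been seen. The sites are printed because these genes include 1 saturated probe, 1 of the brightest probes and 1 moderate one. Capitals mark CATGTG or its reverse complement CACATG, and each sequence is read 5′ to 3′ on the strand of the gene.
Tyrp1: tggggagggagtCATGTGctgcctagtagt
Tyr: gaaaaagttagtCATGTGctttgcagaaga
Dct: tgcacttagggtCATGTGctaacaaagagg
Oca2: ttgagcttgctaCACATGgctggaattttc
Trpm1: ccaaatcctcatCATGTGcccaccccaaac
The Tyrp1 site lies at chr4:80834155-80834184 on the plus strand, and its CATGTG begins 46 bases before the start site of its window, which is itself 90 bases after the first base RefSeq gives for the gene. The Tyr site lies at chr7:87493516-87493545 on the minus strand, and its CATGTG begins 21 bases before the start site. The Dct site lies at chr14:118052379-118052408 on the minus strand, and its CATGTG begins 150 bases before it. The Oca2 site at chr7:56239561-56239590 and the Trpm1 site at chr7:64153682-64153711, both on the plus strand, hold the short form alone. A match of letters is no evidence of binding here, and Tyr with the longer form had a moderate level while Dct was saturated.

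In the visual cycle, 10 of 12 genes were in the high class, against 16.6% of all genes, and 2 were moderate. The 12 had a median percentile of 98.9 and were well above background on every array. Rdh5, an 11-cis retinol dehydrogenase, had 15.20, 15.22 and 14.69 and rank 35. Lrat, which esterifies retinol, had 13.49, 13.56 and 13.65. The enzymes that store, isomerise and oxidise retinoids were therefore each among the brightest probes. Rdh10 lay at percentile 99.5, Rdh11 at 93.8 and the opsin Rrh at 97.0. Rrh was lower on array 3, with 11.86, 11.97 and 11.11. Ttr, the thyroid hormone and retinol carrier transthyretin, had 12.17, 12.01 and 12.65 and lay at percentile 98.3. Stra6, the receptor for the serum retinol carrier, had 8.11, 7.71 and 9.12 and lay at percentile 66.4, or 54.6 without array 3. Rbp4, that serum carrier, lay at percentile 52.3. Both remained in the moderate class.

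Of 15 melanin and melanosome genes, 10 were high and 5 moderate, with a median percentile of 97.7. The melanosome matrix protein Pmel had 13.95, 13.90 and 14.08, and the melanosome antigen Mlana had 13.57, 13.41 and 13.49. Gpnmb, a glycoprotein of melanosomes and lysosomes with another probe at percentile 29.8, had 13.45, 13.37 and 13.61. Their SDs over the 3 arrays were 0.09, 0.08 and 0.12, so they varied little between hybridisations. The transporters of the melanosome membrane were all high, with Slc24a5 at percentile 98.4, Oca2 at 97.7 and Slc45a2 at 96.6. Tyr, the tyrosinase that starts melanin synthesis, had 9.00, 8.82 and 8.25 and lay at percentile 73.0. Mitf, the transcription factor of pigment cells, had 8.47, 8.54 and 9.01, at percentile 72.8. The ocular albinism receptor Gpr143 lay at 80.2. The melanosome motors and their partners lay near the limit, with Rab38 at 91.2, Rab27a at 88.3 and Myo7a at 87.2. The first enzyme and the regulator thus had lower places on the array than Dct, Tyrp1 and Pmel, which are compared as places only.

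Of 18 measured genes for RPE transport, channels and secreted factors, 17 were high. The list had a median percentile of 97.9. Slc2a1, the glucose transporter GLUT1, had 14.89, 14.92 and 14.79. Slc16a1 and Slc16a8 encode lactate transporters and lay at 99.5 and 98.0, and their partner Bsg lay at 97.4. The taurine transporter Slc6a6 lay at 99.7. Timp3, the metalloproteinase inhibitor of the membrane between RPE and choroid, had 15.03, 15.11 and 15.04. Nutrient carriers and this inhibitor gave close values on all arrays. The angiogenesis inhibitor PEDF (Serpinf1) lay at 97.7 and Vegfa at 96.6. Otx2, a transcription factor of RPE and photoreceptors, had 12.89, 12.94 and 12.48. The epithelial keratins Krt18 and Krt8 lay at 99.0 and 96.5. Best1, the chloride channel of the basal RPE membrane, was the exception, with 8.49, 8.47 and 8.03 at percentile 66.8, and its other probe lay at 40.7. Aqp1, a water channel, had 11.23, 11.37 and 9.48. Its SD of 1.05 was set by array 3, where alone it lay below the limit of the high class. The remaining members, Slc6a13, Atp1b1, Enpp2, Efemp1 and Ezr, lay between 95.6 and 99.2.

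The uptake and digestion of photoreceptor tips was represented by 15 genes, of which 11 were high and 4 moderate, with a median percentile of 98.4. The genes of digestion had the highest places. Cst3, the protease inhibitor cystatin C, had 15.63, 15.63 and 14.99, the cathepsin Ctsb had 14.73, 14.75 and 14.90, and the cathepsin Ctsd had 13.93, 14.04 and 14.10. The membrane proteins Lamp1 and Lamp2 lay at 98.9 and 98.4. On the uptake side, the bridging ligands Mfge8 and Gas6 lay at 98.8 and 98.2, and the integrin chains Itgb5 and Itgav at 96.0 and 94.0. Mertk, the receptor that triggers engulfment, had 9.17, 8.96 and 9.15 and lay at 78.9. Pros1, another ligand of Mertk, lay at 86.0, Cd36 at 84.6 and Tulp1 at 79.1. The lysosomal genes and the ligands Mfge8 and Gas6 were thus high, and Mertk, Pros1, Cd36 and Tulp1 were moderate.

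**Figure D3:**
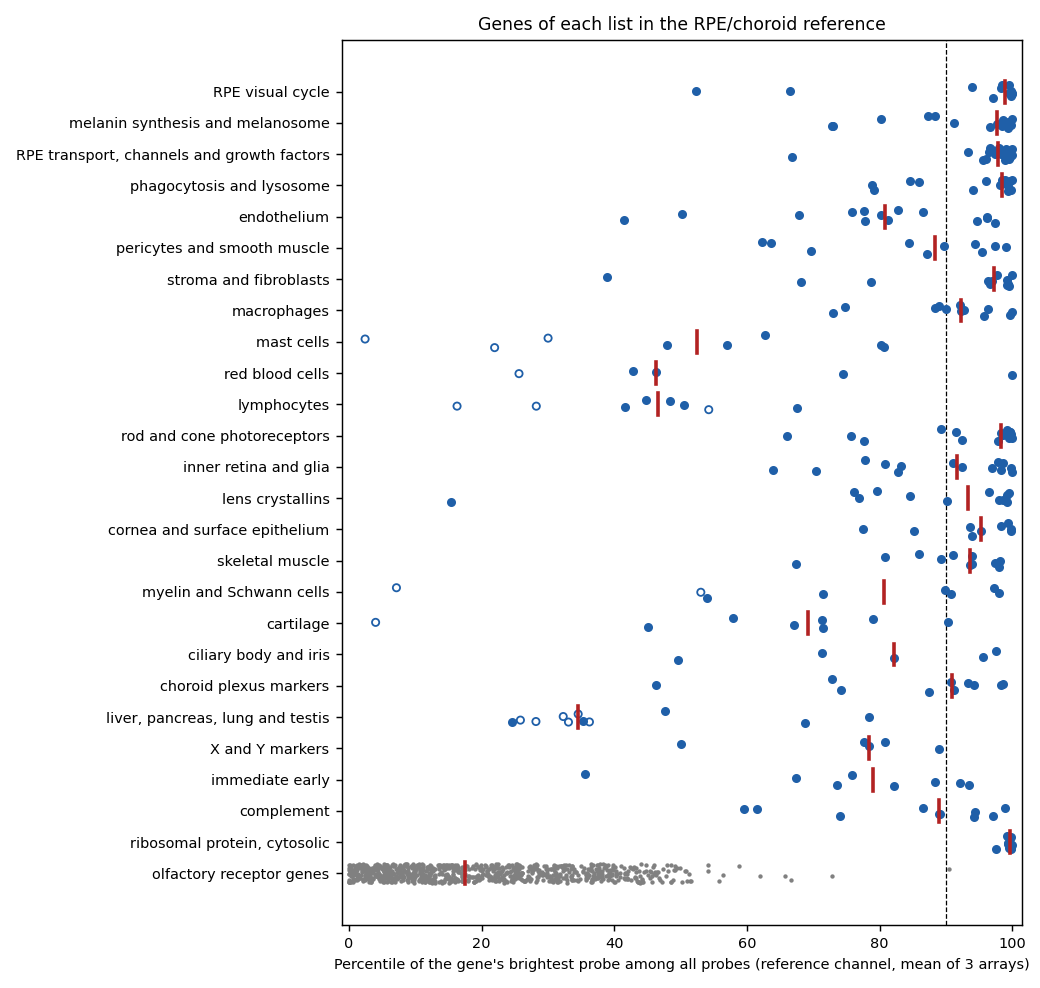
Percentile of each listed gene by its brightest probe in the reference channel (mean of 3 arrays), by list, with filled points for genes well above background on all 3 arrays, open points for the others, red bars for the median of a list and the dashed line at the 90th percentile. The 4 RPE lists, stroma, rods and ribosomal proteins crowd to the right of the line, mast cells, lymphocytes and genes of other organs lie to its left, and 905 olfactory receptor genes (grey) have their median at 17.5.

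The lists for cell types found in the choroid differed from each other. Which tissue their transcripts came from was not tested. In the endothelium list 4 of 14 genes were high, beside 16.6% of all genes, 9 moderate and 1 low, with a median percentile of 80.8. Kdr, the main receptor for VEGF, had 11.68, 11.76 and 11.97, and its other probe was in the low class. Flt1, a second VEGF receptor, lay at 96.1, Cd34 at 96.2 and Emcn, the endothelial sialomucin, at 94.7. The junction genes Esam and Cdh5 lay at 80.3 and 67.8, and the receptor Tie1 at 50.2. Pecam1, at 7.59, 7.27 and 8.02, lay at 41.4. Plvap, which forms the diaphragms of fenestrated capillaries, lay at 77.7, and Cldn5, of tight junctions, at 86.5. With the median over the probes of a gene, 2 of the 14 were high.

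Stromal genes were bright. Of 12, 9 were high, 2 moderate and 1 low, with a median percentile of 97.3. Dcn, the proteoglycan decorin, was saturated on arrays 1 and 2 and measured 15.63 on array 3, while its other probe lay at 48.3. Lum, the proteoglycan lumican, had 13.08, 13.08 and 13.34. Mgp, matrix Gla protein, had 13.45, 13.43 and 13.64. The collagen chains Col1a2, Col1a1 and Col3a1 lay at 99.4, 97.7 and 96.4, while Col6a1 lay at 68.1 and Col6a2 at 39.0. The other probes of Col1a2, Col1a1 and Col3a1 lay lower, the highest of them at 65.4 for Col1a1. Fn1 lay at 78.7, and with the median over probes 5 of the 12 were high.

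Among 10 genes of pericytes and smooth muscle, 4 were high and 6 moderate, with a median percentile of 88.4. Acta2, smooth muscle actin, had 12.90, 13.08 and 13.11. Tagln lay at 97.4, Myl9 at 95.4 and Mylk at 94.4. The pericyte markers Pdgfrb, Rgs5 and Cspg4 lay at 89.7, 84.3 and 69.6. All 10 were well above background on every array.

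Of 12 macrophage genes, 8 were high and 4 moderate, with a median percentile of 92.2. Lyz2, lysozyme, had 15.22, 15.24 and 15.11. The protease Ctss lay at 99.7, the receptor Csf1r at 95.7 and C1qc at 96.3. C1qa and C1qb both lay at 92.2. Cd68 was just inside the high class and outside it without array 3, at 89.5. Adgre1, the F4/80 antigen, lay at 88.3 and Mrc1 at 73.0. Under the stricter limit of the 95th percentile 4 of the 12 were high.

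Other immune cells left weaker marks. No mast cell gene of 8 was high, 4 were moderate, 3 low and 1 very low. The most specific ones lay in the middle of the array or below it. Cpa3, the mast cell carboxypeptidase, had 8.35, 8.38 and 7.72 at 62.8, Cma1 lay at 57.1 and Mcpt4 at 48.0. Fcer1a, at 2.44, was well above background on no array. Kit and Hdc lay higher, at 80.2 and 80.7, and melanocytes use Kit as well. No lymphocyte gene of 8 was high either, 3 were moderate and 5 low. Ptprc, which all leukocytes carry, was the highest at 67.6, and the T and B cell genes Cd3e and Cd79a lay at 44.8 and 16.3.

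Globin was the only red blood cell mark in the high class. Hba-a1 had 15.15, 15.16 and 15.07, and Hbb-bt, which is in no list, was saturated on arrays 1 and 2. Of the 5 measured genes, Alas2 lay at 74.4 and the membrane genes Slc4a1 and Epb42 at 42.9 and 25.6. The list had a median percentile of 46.2.

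Photoreceptor genes had places on the array like those of the RPE lists. Of 15 measured genes, 11 were high and 4 moderate, with a median percentile of 98.3. Gnat1, rod transducin, had 15.21, 15.29 and 15.46. Prph2, which shapes the outer segment discs, had 15.04, 14.16 and 14.26. Both were above the high limit on each array by several log2 units. The rod transcription factor Nrl, which acts in the nucleus, lay at 99.7, the arrestin Sag at 99.6, Rcvrn at 99.1, Pde6b at 98.6, Cnga1 at 98.3 and Crx at 91.6, while Pde6a lay at 89.2. Photoreceptor genes outside the list were also among the brightest unsaturated probes, Pdc at 15.39, 15.44 and 15.59 and Pde6g at 15.44, 15.36 and 15.44. Cone genes were lower on the whole. Opn1sw and Opn1mw, the cone pigments, lay at 66.1 and 77.6 and Arr3 at 75.7, whereas Gnat2 and Pde6h lay at 92.4 and 97.9.

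The inner retina and glia list had 8 of 14 genes in the high class and 6 in the moderate class, with a median percentile of 91.7. Glul, glutamine synthetase of Müller glia, had 15.06, 15.10 and 15.30. Snap25, of synapses, had 12.27, 12.26 and 12.43. Trpm1, at 98.5 with its other probe at 24.5, is used both by ON bipolar cells and by pigment cells. Apoe lay at 99.7, Syt1 at 97.8, Nefl at 96.9 and Pcp2 at 91.0. Genes of narrower use were moderate, with Grm6 at 63.9, Gfap at 70.4, Slc17a6 at 77.8, Slc1a3 at 80.8 and Calb2 and Calb1 at 82.8 and 83.2. With the median over probes 5 of the 14 were high.

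Lens crystallins were high in 7 of 12 listed genes, with 4 moderate and 1 low and a median percentile of 93.3. Cryaa, the lens alpha crystallin, had 13.43, 13.26 and 13.03. Crybb2 had 12.99, 13.07 and 13.33, and Crygs had 12.54, 12.35 and 12.59. Alpha, beta and gamma crystallins were thus all present in the high class. Cryab, at 99.5, is also made outside the lens. The crystallins Crybb1 and Crybb3 lay at 84.5 and 76.8, the filament gene Bfsp1 at 79.6 and the fibre cell membrane genes Mip and Lim2 at 76.1 and 15.5. Over all 17 genes of the crystallin families on the array, 10 were high, while Cryge and Crygf lay at 53.1 and 44.9.

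Of 9 genes of cornea and surface epithelium, 7 were high and 2 moderate, with a median percentile of 95.3. Krt12, a keratin known from corneal epithelium, had 12.68, 12.70 and 11.45. Krt5 had 14.45, 14.51 and 14.60 and Krt15 had 14.75, 14.48 and 14.33, both keratins of basal epithelial cells. Krt12 was more than 1 log2 unit lower on array 3 but stayed in the high class there. Perp lay at 99.3, Krt13 at 95.3, Aldh3a1 at 93.8, Krt14 at 93.6, Krt4 at 85.2 and Trp63 at 77.5. Of 45 keratin genes on the array 11 were high (24.4%), beside 16.6% of all genes.

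Skeletal muscle genes were high in 7 of 11 cases and moderate in 4, with a median percentile of 93.6. Myl1, a fast myosin light chain, had 12.40, 12.36 and 11.84, and Tnni2, a fast troponin, had 12.00, 12.08 and 12.06. Tnnc2 lay at 97.3, Acta1 at 93.9 and the oxygen store Mb at 93.8, with Ckm at 80.8 and Pvalb at 67.3. Under the 95th percentile as limit 3 of the 11 were high.

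Of 8 myelin genes 3 were high, among them Pmp22 at 98.0 and Mal at 97.3, and 1 was very low. The other probe of Pmp22 lay at 10.7, and with the median over probes 1 of the 8 was high. The myelin list had a median percentile of 80.6. Of 8 cartilage genes only Sox9 was high, at 90.4 and at 89.8 without array 3, and the median was 69.2, with Col2a1 at 71.5 and Matn1 at 4.03. With the median over probes none of the 8 cartilage genes was high. Of 5 genes of ciliary body and iris, Myoc and Zic1 were high at 97.5 and 95.6, and the median was 82.2.

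Over the 8 lists of photoreceptors, inner retina, lens, cornea, muscle, myelin, cartilage and ciliary body, 46 of 82 measured genes were high and 79 passed the background flag on every array, beside 16.6% and 72.7% of all genes. The source of these transcripts in the reference was not tested. Since the lists were chosen with earlier results of these data known, their shares describe the chosen members only.

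Choroid plexus markers, chosen for the other tissue on these arrays, were high in 6 of 10 genes, moderate in 3 and low in 1, with a median percentile of 91.0. Clic6, a chloride channel protein, had 12.40, 12.61 and 12.52. Folr1, a folate receptor, had 11.17, 10.98 and 10.44. Kcne2, a potassium channel subunit, had 10.05, 10.62 and 10.15. It lay at percentile 90.8, but at 89.1, 92.9 and 89.9 on the single arrays, so it was high on array 2 alone. Slc13a4 lay at 91.1, and Ttr and Aqp1, given above, belong to both epithelia. Kl lay at 72.8 and Htr2c, a serotonin receptor used widely in choroid plexus, at 46.4. Under the stricter limit of the 95th percentile 2 of the 10 were high.

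Genes of liver, pancreas, lung, kidney and testis served as a further background. Of 11 measured genes none was high, 2 were moderate and 9 low, with a median percentile of 34.6. Alb, serum albumin, had 7.73, 7.70 and 7.75 at 47.6. Sftpc, of lung, had 7.09, 7.08 and 8.13 at 25.9. Ins2 and Prm1 were the moderate ones at 78.3 and 68.7, and Ins2 had a second probe at 77.1. With 5 of the 11 well above background on all arrays, including Alb, that flag alone does not separate expressed genes from genes of other organs here.

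Both Xist and the Y-linked genes were measured. Xist, which coats the inactive X of females, had 10.11, 10.22 and 9.75. Eif2s3y had 9.21, 9.45 and 9.03, and Ddx3y had 9.40, 9.41 and 8.20. Xist, at percentile 89.0, and Eif2s3y, at 80.7, passed the background flag on every array. Kdm5d lay at 78.5 and Uty at 50.1. None of the 5 was high, and the median percentile was 78.5. In the CPE channel of the same spots Eif2s3y and Ddx3y were well above background on no array, Uty on 1 and Kdm5d on all 3. The CPE mice were female, so the flag at a Y-linked probe is not by itself evidence of its transcript.

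Immediate early genes, which stimuli and tissue handling can induce, were high in 2 of 8, a share near the 16.6% of all genes. Another 5 were moderate and 1 low, and the list had a median percentile of 79.0. Junb lay at 93.5 and Dusp1 at 92.0, Egr1 at 88.4, Fos at 75.9 and Fosb at 35.6. None of the 8 lay above the 95th percentile. Of 10 complement genes 4 were high and 6 moderate, with a median percentile of 89.0. C2, a serine protease of the classical pathway, had 11.72, 11.64 and 11.65 and lay at 97.1, Serping1 at 94.4 and Cd59a at 94.2, with C4b and C3 at 89.1 and 88.9. Above the 95th percentile were 2 of the 10. All 13 measured ribosomal protein genes of the list were high, between percentiles 97.6 and 100.

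The very brightest probes joined pigment, stroma, blood and general genes. Dct and Tmsb4x, which encodes the actin-binding thymosin beta 4, were saturated on all 3 arrays. Hbb-bt, Gsto1, Ptgds, Dcn and a probe named BC012020 in the array file were saturated on 2 arrays, and Rplp1 on array 3 alone. A saturated probe has a lower bound only, so these have no order. Ptgds makes prostaglandin D2 and Gsto1 is a glutathione transferase.

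Of the 25 brightest genes with no saturated probe, 7 encoded ribosomal proteins, namely Rplp2, Rpl37a, Rps12, Rpl17, Rps28, Rps27 and Rps16, and Tma7 belongs to the translation machinery too. Iron and metal binding was represented by Fth1 with 15.85, 15.85 and 15.76, by Mt2 with 15.59, 15.59 and 15.88 and by transferrin, Trf, with 15.29, 15.39 and 15.49. The ferritin, metallothionein and transferrin genes Fth1, Mt2 and Trf had SDs of 0.05, 0.17 and 0.10. Also among the 25 were the photoreceptor genes Pdc, Pde6g and Gnat1, Rdh5 of the visual cycle list and Timp3 of the list for RPE transport. Others were Ubb, Cst3, Lyz2, Glul, Hba-a1, S100a6, Aldoa and Csta1. Rps12 had the widest spread of them, with 15.84, 15.76 and 14.78.

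Of the 264 listed genes on the array, 248 passed the background flag in the reference on every array. Of these 248, 214 were so in the CPE channel as well, and 4 were so on no CPE array: Tyr, Pde6a, Ddx3y and Eif2s3y. Over all probes, 17946 of the 25312 that passed in the reference on every array also passed in the CPE channel on every array. That share counts probes and not genes. Of the 141 listed genes in the high class 139 were also high without array 3, which is all but Cd68 and Sox9, and Mbp was high only without it.

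**Figure D4:**
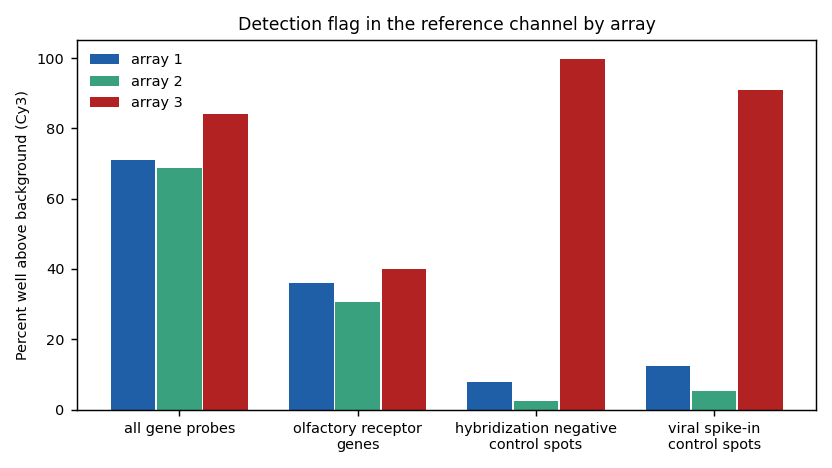
Percent of probes, genes or spots that were well above background in the Cy3 channel on arrays 1, 2 and 3, for all gene probes, olfactory receptor genes, hybridization negative control spots and viral spike-in control spots. Array 3 passed nearly all control spots (99.7% and 91.0%), which arrays 1 and 2 passed in 2.30% to 12.3% of cases.

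The flag itself depended on the array. It was set for 29240, 28255 and 34650 probes on arrays 1, 2 and 3. The median background was 113, 112 and 236 intensity units. On arrays 1 and 2 together 27736 probes passed, and 7878 passed on array 3 alone. Negative control spots for hybridisation, 392 per array, passed in 7.91%, 2.30% and 99.7% of cases, and structural negative controls in none. Being well above background on array 3 alone was therefore not read as expression above.

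The 10 genes with the largest SD were all set by array 3. Abt1 had 7.49, 7.32 and 10.14, Alpl had 10.81, 11.07 and 8.34 and Hspa8, a constitutive heat shock protein, had 13.89, 13.86 and 11.47. Pcbp1, Rpl24 and Clcn3 were lower on array 3 as well, and Sgf29, Gsg1l, 2700099C18Rik and Zfp444 were higher. Array 3 was the farthest from the median of the arrays for 78.1% of the 25312 probes. Of 777 probes at least 2-fold from the mean of arrays 1 and 2, 416 were higher and 361 lower. The other probe of Hspa8 differed by -0.36 log2 units on array 3, where the first differed by -2.41.

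The red channel of the same array moved with these deviations. Over 17946 probes that passed the background flag in both channels of every array, the deviation of array 3 from the mean of arrays 1 and 2 correlated between Cy3 and Cy5 at r = 0.752 across probes, which share the array and the spot. Of 560 such probes that were 2-fold off in Cy3, 477 were 2-fold off the same way in Cy5 and 0 the opposite way. The reference RNA and the CPE RNA of mouse 3 are different RNAs on this array, and the part of either in the deviation was not tested.

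**Figure D5:**
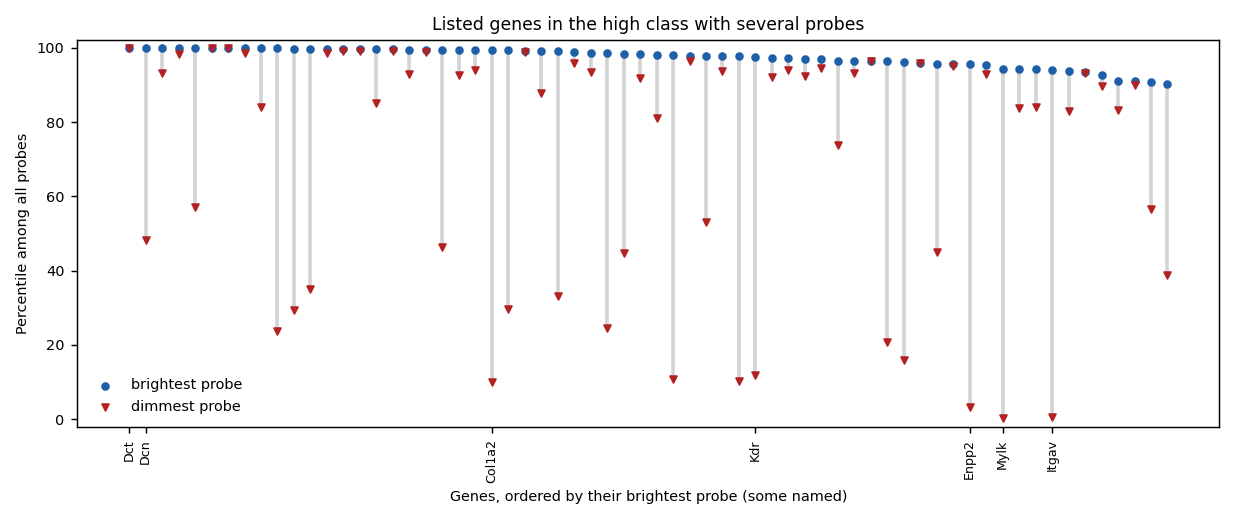
Percentile of the brightest probe (circles) and the dimmest probe (triangles) of each of 64 listed genes that were in the high class and had several probes, ordered by the brightest. For 30 genes the dimmest probe was also above the 90th percentile, and for 20 it was at or below the 50th, as for Kdr, Col1a2, Enpp2, Mylk and Itgav.

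The choice of the brightest probe mattered for some genes. Of 64 listed genes with several probes and a high one, 30 had all probes in the high class and 20 had a probe at or below the 50th percentile. Enpp2 had probes at 95.6 and 3.21, Mylk from 94.4 down to 0.206 and Itgav from 94.0 down to 0.447. Over all genes with several probes and a high one, 705 of 1902 (37.1%) had a low or very low probe too.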

How the data were processed

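The authors deposited scanner tables made with Agilent Feature Extraction 9.5.3.1, which hold the mean intensity of each spot on a linear scale in both channels with flags. The deposited series table of log2 values followed the Cy5 channel (rank correlations 0.993 to 0.996, against 0.832 to 0.924 with Cy3) and was not used further. Cy3 intensities were put on the log2 scale and quantile normalized in R 4.3.3 with limma 3.58.1, with no background correction. Of 41534 spots that were no controls, 43 outliers were dropped, and a probe printed several times took the mean of its spots. Ranking was tested on simulated data. Probes were named through RefSeq accessions (23371), current symbols (6732) or synonyms (2919), and 8147 kept the name of the file. Probe coordinates are mm8.

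Named genes were those saturated on all arrays, the members of 25 lists, the 25 brightest genes with no saturated probe and the 10 with the largest SD. The members and lists were chosen with earlier results of these data known. No test was run, since 1 RNA has no replicates. The number of arrays limits the precision. The reference spread describes repeat hybridisation of 1 RNA and not animals, and its cause was not tested. Alternatives were other background corrections and scalings, other probe sets, limits and probe choices, and leaving out each array. Some listed genes are counted but not reported singly here.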

Additional observations from a re-analysis of the deposited data

Results flagged for a closer look

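Control spots were not part of any list above. On array 3, 99.7% of the 392 negative control spots for hybridisation were well above background in the reference channel, against 7.91% and 2.30% on arrays 1 and 2. Their median intensity was 121, 115 and 350 units over a background of 114, 112 and 235 units. Of 300 spots for the viral spike-in probes, 91.0% passed on array 3, against 12.3% and 5.33%. The level of the 10 spike-in probes on array 3 ran from a median of 240 to 581 units, against 95.7 to 134 on array 1.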

How the results depend on the processing

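The count of genes in the high class stayed between 3258 and 3263 under normexp, the processed signal of the scanner software, median scaling, Aquantile, with outlier spots kept and without each array in turn. It was 2012 when the ranking was limited to probes that passed the background flag on every array. When the ranking was limited to curated transcript accessions it was 2068. With the 95th percentile as limit it was 1626 of the 19691 genes. These settings rank fewer probes or raise the limit by construction. In the same order the high genes of the macrophage list were 4, 4 and 4 and of the cartilage list 0, 0 and 0. Immediate early genes were 0, 1 and 0. Skeletal muscle gave 4 and 3, and choroid plexus markers 3 and 2, under the first and the last of these settings. Inner retina gave 5 with curated accessions and complement 2 under the 95th percentile. With the median over the probes of a gene, endothelium gave 2, stroma 5, inner retina 5, myelin 1 and cartilage 0, and Kdr, Dcn, Glul, Myl1 and Folr1 left the high class. Probes saturated on at least 2 arrays were 7 in place of the 2 saturated on all 3, and leaving out 1 array gave 2 to 6, with 6 without array 3. The median SD was 0.36 with median scaling and 0.039 to 0.18 when 1 array was left out, lowest without array 3. Probes well above background numbered 25601 to 27736 with 1 array left out and 29196 on at least 2 arrays. No paired analysis was possible because all arrays form 1 group. Dye bias of Cy3 cannot be told apart from level, since the reference was never labelled with Cy5. Brightness over background limits the low and very low classes, where 32.0% and 0.948% of probes were well above background on all arrays.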

Other observations

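Probes of one gene differed with their position. For 5391 genes with probes well above background at least 100 bases apart on 1 strand, the probe nearest the 3′ end was the brighter one in 72.7%, with a median difference of 0.62 log2 units. For 470 genes the deviation of array 3 differed by 2-fold or more between the outermost probes, and in 68.5% of them it was higher at the 5′ probe.

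Some large families were described outside the lists. Of 43 collagen genes 7 were high (16.3%), a share near the 16.6% of all genes. The highest was Col8a1, a collagen of basement membranes around vessels and cornea, at percentile 99.7. Of 133 vomeronasal receptor genes none was high, with a median percentile of 20.5, and of 28 beta defensin genes only Defb1 was, at 90.6. Of 95 genes whose symbols begin with Rpl, Rplp or Rps and a digit, 77 were high. The match was by symbol alone, so kinases of ribosomal proteins with such symbols may be among them. Of 4117 probes in the high class, 237 had no symbol here. Spots of 40 probes printed 10 times on each array had a median SD within the array of 0.18, 0.25 and 0.15 log2 units on arrays 1, 2 and 3 before normalization.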
